A study of Mus musculus with 8 samples.

Results

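The genes described here are 42 interferon-stimulated and antiviral genes, listed by name, but with earlier results of these data known. They were followed in mouse embryonic fibroblasts (MEFs), connective tissue cells cultured from embryos and here immortalized with the large T antigen, a viral oncoprotein. The 4 genotypes were wild type, VHL null, FIH null and VHL/FIH null. A gene was measured where the platform annotation gave at least 1 Affymetrix Mouse Genome 430 2.0 probe set to that gene alone, which held for 40 of the 42. Isg15 was read only by a probe set shared with other genes and Ifi44 had no match, so both were not analysed here. Of the 40 genes, 35 had signals high enough to be tested, out of 11564 tested genes among 18193 with a probe set in the whole series. Each genotype had 2 arrays, made from cells kept at 21% oxygen. The null cells were obtained by infecting MEFs that carry floxed Hif1an (which encodes FIH), floxed Vhl or both with an adenovirus expressing Cre recombinase, and the labels do not say whether the wild type cells met the virus. Each null group came from a floxed line of its own, so genotype and line of origin cannot be told apart. The labels name biological replicates but no separate embryos or cultures, so p-values here reflect only how far these samples spread.

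Interferons are secreted antiviral signals. Type I interferons bind a receptor built from IFNAR1 and IFNAR2, and its kinases activate a complex of STAT proteins with IRF9 that binds the interferon-stimulated response element (ISRE) of its target genes; interferon gamma acts through a receptor of its own and the gamma-activated site. The targets include sensors of viral RNA, enzymes and GTPases that block replication, proteins that load peptides on MHC class I, and chemokines, and unstimulated fibroblasts keep many of them at a low resting level. VHL is part of the ubiquitin ligase that marks hypoxia-inducible factor (HIF) alpha subunits for destruction, and FIH is an asparaginyl hydroxylase that restrains their activity.

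Values are MAS5 signals, linear intensities per probe set, and a change is a difference of group means of log2(signal + 16). A change was called where the limma p-value, adjusted by the Benjamini-Hochberg method over all 11564 genes, was under 0.05. A group whose mean signal lay below 291.1, the median of all signals, was treated as having no measured level, and its fold is given as "at least". Over the 11564 tested genes, on the log2(signal + 16) scale, r was 0.989 in the 4 pairs of replicate arrays. It was 0.942 to 0.976 in the 24 pairs from different groups. With 2 arrays a group, precision is limited by their number. Vhl signal was 3294 ± 36 (mean ± SD, n = 2) in wild type, 731 ± 33.2 in VHL null and 979 ± 116 in VHL/FIH null cells. The Hif1an signal was 1691 ± 21.7 in FIH null, 1286 ± 166 in VHL/FIH null and 2867 ± 206 in wild type cells. Hif1an was also lower in VHL null cells, at 2033 ± 169.9 (adjusted p = 0.00597). Whether these probe sets lie within the deleted exons is not given in the sources used here. Of 10 fibroblast markers 6 were above the cutoff on all 8 arrays, Lum was below it on all 8, and 3 were above it on some arrays. Of the 6, Col3a1 rose by 0.86 in VHL null and by 1.15 in VHL/FIH null cells against wild type (adjusted p = 8.12e-07 and 4.4e-08). Pdgfrb fell by 0.86 in VHL/FIH null cells (adjusted p = 8e-05), and Col1a1 rose by 0.50 in FIH null cells (adjusted p = 0.00237). Vim and Fn1 were not called in any comparison. Pdgfra had a mean signal of 1820.2 in VHL null and 175 in VHL/FIH null cells (log2 change -3.26, adjusted p = 2.18e-06). Dcn had 1056 in VHL null cells against 610.1 in wild type, and was below the cutoff in mean in both groups without FIH. Thy1 was lower in VHL/FIH null than in VHL null cells (log2 change -1.24, adjusted p = 0.0284). Of 9 macrophage markers, 6 (Ptprc, Adgre1, Lyz2, Itgam, Tyrobp and Fcer1g) were below the cutoff on all 8 arrays, as were 4 of 4 lymphocyte markers and, besides Bst2, 3 of 3 further markers of plasmacytoid dendritic cells. The other 3 macrophage markers, Cd68, Csf1r and Cd14, were above it on all 8 arrays. Cd14 rose by 0.47 in VHL null cells (adjusted p = 0.00394) and was lower by 0.75 in VHL/FIH null than in VHL null cells (adjusted p = 0.000252). Of 5 endothelial markers 3 were below the cutoff on all 8 arrays, while Kdr was above it on 4 and Tek on 1. Krt18, an epithelial marker, was above it on all 8. The summed macrophage signal was 4406 to 4432 in VHL null, 3364 to 3727 in wild type, 3586 to 3599 in FIH null and 3485 to 3563 in VHL/FIH null cells. The summed signal of the epithelial markers was 2155 to 2466 in wild type, 2392 to 2418 in FIH null, 1045 to 1312 in VHL null and 931 to 1250 in VHL/FIH null cells, and the part of any of these markers in the results was not tested. These are bulk samples, so fewer cells that express a gene and less RNA per cell cannot be told apart.

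In VHL null cells 19 of the 35 tested members fell against wild type, 1 rose and 15 were not called, beside 43.8% called over all tested genes, 28.4% lower and 15.5% higher. The median change of the members was -0.69 on the log2 scale and that of all genes was -0.10. VHL/FIH null cells stood above VHL null cells in most called members: of the same 35, 19 were higher and 4 lower (37.7% of all genes called, 22.3% higher and 15.4% lower), with a median of 0.48 against 0.05 for all genes. These 2 comparisons share the VHL null arrays, and those against wild type share the wild type arrays. FIH loss alone left 33 of 35 members uncalled and 2 lower (6.55% of all genes called, 1.96% higher and 4.59% lower). VHL/FIH null cells set against wild type had 5 members higher and 10 lower (41.4% of all genes called, 17.8% higher and 23.6% lower), a median of -0.16 against -0.05 for all genes. VHL null arrays did not overlap wild type arrays in 31 of the 35 tested members (88.6%), 28 of them lower (80%), beside 74% of all tested genes, 45.9% lower. The 23 members above the cutoff on all 8 arrays split in the same way, with 12 lower and 1 higher in VHL null cells and 14 higher and 4 lower in VHL/FIH null than in VHL null cells.

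Spiked hybridization controls exceeded their wild type level by 0.377 in VHL null, 0.521 in VHL/FIH null and 0.258 in FIH null cells on the log2 scale. Scaling to them moves the median change of all genes from -0.10 to -0.48 in VHL null and from -0.05 to -0.57 in VHL/FIH null cells against wild type. On that scale 31 members were lower and 1 higher in VHL null cells, beside 68.8% of all genes lower and 3.72% higher. Against wild type 23 were lower and 1 higher in VHL/FIH null cells, beside 74.6% lower and 4.38% higher. In VHL/FIH null against VHL null cells 14 were higher and 5 lower, beside 12% higher and 26% lower. All changes below are relative to the mean level of the array, and called directions that turn with this scaling are named where they occur.

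**Figure D1:**
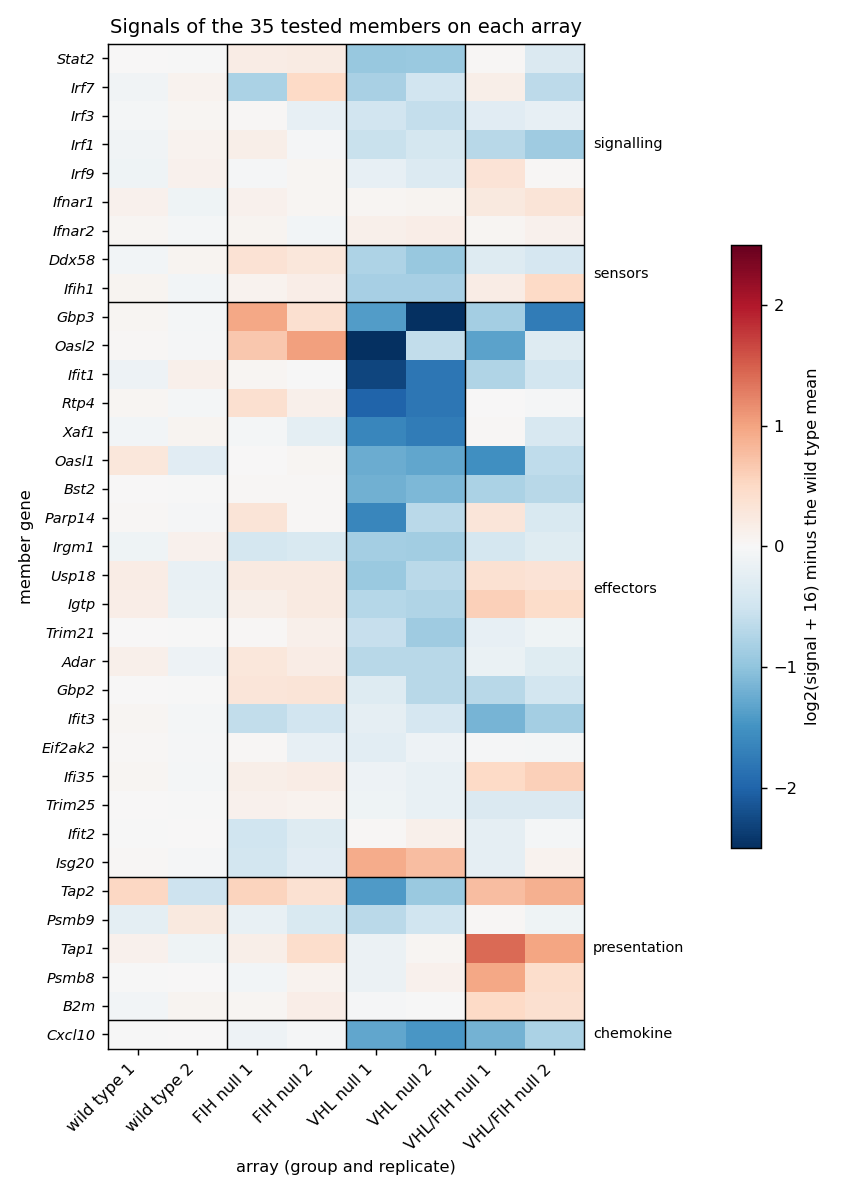
Heat map of the 35 tested members (rows, by role) on the 8 arrays (columns). Colour gives log2(signal + 16) minus the wild type mean, blue for lower and red for higher, and cells beyond either end of the scale have its end colour. The VHL null columns are blue for most rows, with Isg20 red, and the VHL/FIH null columns are mixed, with Tap1, B2m and Ifi35 red and Ifit3, Irf1 and Cxcl10 blue. With scaling to hybridization controls B2m turns to -0.07 and Ifi35 to 0.02 in VHL/FIH null cells against wild type.

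Among ligands, the 7 interferon genes with a probe set (Ifnb1, Ifna1, Ifna2, Ifna4, Ifna5, Ifna11 and Ifng) had too little signal to be tested, 6 of them below the cutoff on all 8 arrays and Ifnb1 above it on 1 array. With the probe set of highest mean signal, the receptor genes Ifnar1 and Ifnar2 did not change with VHL loss beyond the test's threshold. Of 3 tested Ifnar2 probe sets, however, 1 was called lower in VHL null than in wild type cells (changes from -0.42 to 0.15). In VHL/FIH null cells 1 of the 3 was called lower than in wild type (changes from -0.32 to 0.07). Ifnar1 read 4951 and 4306 on the wild type arrays and 5004 and 4746 on the FIH null arrays. Ifnar1 read 4809 and 4856 on the VHL null arrays and 5485 and 5768 on the VHL/FIH null arrays. Its signal was highest on both VHL/FIH null arrays, which did not overlap those of any other group. Against wild type Ifnar1 rose by 0.28 (SE 0.08, adjusted p = 0.0147), which was lost with its probe sets averaged, without wild type replicate 2 or without VHL/FIH null replicate 2 (adjusted p from 0.0732 to 0.199). With scaling to hybridization controls Ifnar1 instead fell by 0.24 (adjusted p = 0.0264). Ifnar2 changed by 0.15 in VHL null (adjusted p = 0.131) and by 0.07 in VHL/FIH null cells (adjusted p = 0.444), which turned to -0.23 (0.024) and -0.45 (0.000275) with that scaling. Of the interferon gamma receptor genes, Ifngr2 fell by 0.42 in VHL null cells (adjusted p = 0.00753), whereas the change of 0.14 in Ifngr1 did not pass (adjusted p = 0.237) and turned to -0.23 (0.0346) with that scaling.

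Of the 7 receptor and signalling members 3 were lower in VHL null cells, Stat2, Irf1 and Irf3, and 0 were higher. Over all genes 28.4% were lower and 15.5% higher. Stat2, the STAT protein particular to type I and III interferon signalling, read 1165 and 1161.5 on the wild type arrays and 1317 and 1345 on the FIH null arrays. Stat2 read 597 and 603 on the VHL null arrays and 1186 and 897 on the VHL/FIH null arrays. Both VHL null arrays lay far below the other 6. Stat2 fell by 0.94 against wild type (SE 0.155, adjusted p = 0.000674) and was higher by 0.77 in VHL/FIH null than in VHL null cells (adjusted p = 0.00276). Both of its 2 tested probe sets were called lower in VHL null cells. Only 1 was called higher in VHL/FIH null than in VHL null cells (changes of 0.77 and 0.47). Against FIH null cells 1 was called lower in VHL/FIH null cells (changes of -0.77 and -0.36). Irf1, a transcription factor of interferon responses, behaved otherwise: its signals were 4756 and 5314 in wild type and 5543 and 4925 in FIH null cells. Irf1 read 3416 and 3678 in VHL null and 3103 and 2695 in VHL/FIH null cells. They were lowest in VHL/FIH null cells, with no overlap between that group and any other. Irf1 fell by 0.50 in VHL null (adjusted p = 0.00175) and by 0.79 in VHL/FIH null cells (adjusted p = 7.46e-05). Between the latter groups it fell by a further 0.29 (adjusted p = 0.0348). For Irf1 this call ended with no filter on low signals, without a variance trend, without VHL null replicate 1 or 2 or without VHL/FIH null replicate 2 (adjusted p from 0.0532 to 0.2).

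Irf3, which the RNA and DNA sensing pathways activate, read 3586 and 3841 in wild type and 3801.5 and 3231 in FIH null cells. Irf3 read 2662 and 2457 in VHL null and 3058 and 3208 in VHL/FIH null cells. The VHL null arrays were the lowest, and Irf3 fell by 0.53 against wild type (SE 0.0958, adjusted p = 0.0011). For Irf3 this call ended without suffixed probe sets, those with names ending in _s_at, _x_at or _a_at (adjusted p = 0.288). Its difference of 0.29 between VHL/FIH null and VHL null cells (adjusted p = 0.0335) turned to -0.06 with the mean of its probe sets. The call of that difference ended with this mean, with no filter on low signals, with quantile normalization and with median centring. It also ended with scaling to hybridization controls, without a variance trend and without suffixed probe sets. Leaving out VHL null replicate 1 or 2 or VHL/FIH null replicate 1 or 2 ended it as well. Irf9, the DNA-binding partner of the STAT complex, changed by -0.27 in VHL null cells without passing (adjusted p = 0.125). It was higher by 0.45 in VHL/FIH null than in VHL null cells (adjusted p = 0.0202). For Irf9 this did not pass with scaling to hybridization controls, without VHL null replicate 2 or without VHL/FIH null replicate 1 (adjusted p from 0.0943 to 0.142). Irf7, the amplifier of type I interferon production, was near the cutoff at 286 and 326 (wild type), 169 and 436.5 (FIH null), 168 and 214 (VHL null), and 340.0 and 189 (VHL/FIH null). Its FIH null and VHL/FIH null replicates lay far apart, and its change of -0.64 with VHL loss did not pass (adjusted p = 0.283).

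Both tested sensors of viral RNA fell with VHL loss, beside 28.4% of all genes. Ifih1 (MDA5), which recognizes long double-stranded RNA, read 1461 and 1314 on the wild type arrays and 1475 and 1564 on the FIH null arrays. Ifih1 read 774 and 772 on the VHL null arrays and 1575 and 1971.5 on the VHL/FIH null arrays. The VHL null signals were nearly equal to each other and below every other array, and both VHL/FIH null arrays lay above all others. Ifih1 fell by 0.83 without VHL (SE 0.136, adjusted p = 0.000631) and was 2.29-fold higher in VHL/FIH null than in VHL null cells (log2 change 1.17, adjusted p = 6.72e-05). Ddx58 (RIG-I), which recognizes RNA with a 5′ triphosphate, read 2185 and 2424.5 in wild type and 2945 and 2803 in FIH null cells. Ddx58 read 1340.0 and 1194 in VHL null and 1832 and 1709.9 in VHL/FIH null cells. The 4 groups did not overlap and ran from VHL null, the lowest, through VHL/FIH null and wild type to FIH null. Ddx58 fell by 0.86 without VHL (SE 0.106, adjusted p = 9.90e-05). It was higher by 0.48 in VHL/FIH null than in VHL null cells (adjusted p = 0.00444) and its change against FIH null cells was -0.69 (adjusted p = 0.000294). The change against wild type of -0.38 (adjusted p = 0.0146) lost its call with its probe sets averaged, without wild type replicate 2 or without VHL/FIH null replicate 2 (adjusted p from 0.0571 to 0.106). The regulator of both, Dhx58, was below the cutoff on all 8 arrays, with group means from 114 to 174.

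Effectors made up most of the list. Of 20 tested effectors 12 fell and 1 rose in VHL null cells, with a median change of -0.77. Over all genes 28.4% were lower and 15.5% higher. In VHL/FIH null against VHL null cells 10 effectors were higher and 3 lower, with a median of 0.53, beside 22.3% and 15.4% of all genes. In FIH null cells 2 effectors were lower and 0 higher, beside 4.59% and 1.96% of all genes.

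Among the effectors above the cutoff on all 8 arrays, Rtp4, which encodes a receptor-transporting protein, had the largest change with VHL loss. Its signals were 1262 and 1169 on the wild type arrays and 1607 and 1321 on the FIH null arrays. Rtp4 read 292 and 334.5 on the VHL null arrays and 1220.1 and 1194 on the VHL/FIH null arrays. The VHL null arrays stood apart from the other 6, while wild type and VHL/FIH null arrays overlapped. Rtp4 fell 3.88-fold with VHL loss (log2 change -1.90, SE 0.156, adjusted p = 5.67e-06) and was 3.85-fold higher in VHL/FIH null than in VHL null cells (log2 change 1.90, adjusted p = 5.61e-06). Between VHL/FIH null and wild type cells the log2 change was -0.01 (95% interval -0.35 to 0.34, adjusted p = 0.972), and with scaling to hybridization controls it was -0.53 (adjusted p = 0.00678).

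Xaf1, a partner and inhibitor of the apoptosis inhibitor XIAP, read 876.5 and 960.0 in wild type and 888 and 769.9 in FIH null cells. Xaf1 read 287 and 262 in VHL null and 934 and 688 in VHL/FIH null cells. Both VHL null arrays were below the cutoff, and the other 3 groups overlapped each other. Xaf1 was at least 3.15-fold lower in VHL null than in wild type cells (adjusted p = 7.99e-05) and at least 2.79-fold lower than in VHL/FIH null cells (adjusted p = 0.000195). Between VHL/FIH null and wild type cells the change was -0.19 (adjusted p = 0.482), and -0.71 with scaling to hybridization controls (adjusted p = 0.00543). A second Xaf1 probe set gave another pattern, with 448.9 and 329.6 in wild type, 99.6 and 72.6 in FIH null, 344.6 and 247.3 in VHL null, and 945 and 937.5 in VHL/FIH null cells. There the fall in FIH null cells (log2 change -1.99, adjusted p = 0.00372 over all tested probe sets) and the rise in VHL/FIH null cells against wild type (1.26, adjusted p = 0.00873) were called, and the change of -0.38 in VHL null cells was not (adjusted p = 0.359). Both probe sets were higher in VHL/FIH null than in VHL null cells. Against FIH null cells the second probe set rose by 3.24 in VHL/FIH null cells and was called, while the first changed by -0.04 without a call.

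The 3 tested IFIT genes, neighbours on chromosome 19 whose proteins bind viral RNA or block its translation, differed from each other. Ifit1 read 1102 and 1321 on the wild type arrays and 1249 and 1192 on the FIH null arrays. Ifit1 read 234 and 332 on the VHL null arrays and 713 and 878 on the VHL/FIH null arrays. The VHL null arrays, of which 1 was below the cutoff, lay under all others, and the VHL/FIH null arrays lay between them and the overlapping wild type and FIH null arrays. Ifit1 was at least 4.16-fold lower in VHL null than in wild type cells (log2 change -2.05, SE 0.202, adjusted p = 2.12e-05) and at least 2.73-fold lower than in VHL/FIH null cells (adjusted p = 0.000242). Its change of -0.60 in VHL/FIH null against wild type cells (adjusted p = 0.0337) was not called with no filter on low signals, without a variance trend, without wild type replicate 1 or 2, without FIH null replicate 1 or without VHL/FIH null replicate 1 (adjusted p from 0.0504 to 0.193).

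Ifit3 read 1496 and 1413 in wild type and 943 and 1038 in FIH null cells. Ifit3 read 1237 and 1076.5 in VHL null and 642 and 796.5 in VHL/FIH null cells. No group overlapped another, and VHL/FIH null cells had the least and wild type cells the most. Ifit3 fell by 1.01 in VHL/FIH null cells against wild type (SE 0.152, adjusted p = 0.00033) and by 0.68 against VHL null cells (adjusted p = 0.00493), whereas the changes of -0.33 with VHL loss (adjusted p = 0.101) and of -0.55 with FIH loss (adjusted p = 0.0579) did not pass. Its fall by 0.46 against FIH null cells (adjusted p = 0.0286) was not called with no filter on low signals, with only the compared groups, without FIH null replicate 1 or 2 or without VHL/FIH null replicate 1 (adjusted p from 0.0578 to 0.157). Ifit2 changed by 0.08 with VHL loss and did not pass (adjusted p = 0.5), and turned to -0.29 (adjusted p = 0.0247) with scaling to hybridization controls.

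The immunity-related GTPases Igtp and Irgm1, which act on the vacuoles of intracellular pathogens, both fell with VHL loss. Igtp read 1249.6 and 997 on the wild type arrays and 1233 and 1311 on the FIH null arrays. Igtp read 671 and 654.5 on the VHL null arrays and 1696 and 1536 on the VHL/FIH null arrays. Its VHL null arrays were the lowest and its VHL/FIH null arrays the highest of all. Igtp fell by 0.74 without VHL (SE 0.144, adjusted p = 0.00188) and was 2.44-fold higher in VHL/FIH null than in VHL null cells (log2 change 1.26, adjusted p = 6.03e-05). Against wild type it was higher by 0.53 in VHL/FIH null cells (adjusted p = 0.013). For Igtp this call ended with scaling to hybridization controls, without wild type replicate 2 or without VHL/FIH null replicate 1 (adjusted p from 0.0699 to 0.98). Irgm1 read 3212 and 3687 in wild type and 2550.2 and 2636 in FIH null cells. Irgm1 read 1892 and 1870.5 in VHL null and 2528 and 2776 in VHL/FIH null cells. It was highest in wild type and lowest in VHL null cells, with FIH null and VHL/FIH null arrays overlapping between them. Irgm1 fell by 0.87 with VHL loss (SE 0.0958, adjusted p = 4.67e-05) and was higher by 0.49 in VHL/FIH null than in VHL null cells (adjusted p = 0.00218). Its fall by 0.38 in VHL/FIH null against wild type cells (adjusted p = 0.00882) was not called without wild type replicate 2 or without VHL/FIH null replicate 1 (adjusted p from 0.0523 to 0.0869).

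Of the guanylate-binding GTPases, Gbp3 had signals of 409 and 379 (wild type), 784 and 521 (FIH null), 139 and 35.1 (VHL null), and 211 and 107 (VHL/FIH null). Every VHL null and VHL/FIH null array was below the cutoff and every other array above it, so Gbp3 was at least 1.35-fold lower in VHL null than in wild type cells (adjusted p = 0.00629). It was at least 2.24-fold lower in VHL/FIH null than in FIH null cells (adjusted p = 0.0104). For Gbp3 this call ended without FIH null replicate 1 or without VHL/FIH null replicate 2 (adjusted p from 0.0775 to 0.0836). Gbp2, which was above the cutoff on all 8 arrays, had a change of -0.50 in VHL null cells that did not pass (adjusted p = 0.0762) and fell by 0.89 in VHL/FIH null against FIH null cells (adjusted p = 0.00543). Against wild type its change of -0.58 (adjusted p = 0.0492) lost its call with a pseudocount of 1, with no filter on low signals, with quantile normalization, with median centring, with only the compared groups, with its probe sets averaged, with the replicate number as a block, without wild type replicate 1 or 2, without FIH null replicate 1 or 2 or without VHL/FIH null replicate 1 or 2 (adjusted p from 0.05 to 0.18). Mx1 and Mx2, GTPases of another family, were below the cutoff on all 8 arrays.

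Bst2 (tetherin), which holds budding virions at the cell surface, read 2266 and 2224 on the wild type arrays and 2285 and 2294 on the FIH null arrays. Bst2 read 971 and 1016 on the VHL null arrays and 1289 and 1383 on the VHL/FIH null arrays. Wild type and FIH null arrays lay close together, VHL null arrays lowest and VHL/FIH null arrays between. Bst2 fell 2.26-fold with VHL loss (log2 change -1.16, SE 0.103, adjusted p = 1.02e-05) and 1.68-fold in VHL/FIH null cells against wild type (log2 change -0.74, adjusted p = 0.000187). Between VHL/FIH null and VHL null cells it was higher by 0.42 (adjusted p = 0.00806). For Bst2 this call ended with scaling to hybridization controls (adjusted p = 0.074).

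The enzymes that act on RNA moved in different directions. Adar, which edits adenosine in double-stranded RNA, read 4111 and 3464 on the wild type arrays and 4600.0 and 4292 on the FIH null arrays. Adar read 2329 and 2336 on the VHL null arrays and 3341 and 3072 on the VHL/FIH null arrays. The VHL null arrays were the lowest and the VHL/FIH null arrays lay below all 4 remaining ones. Adar fell by 0.69 without VHL (SE 0.0955, adjusted p = 0.000209) and was higher by 0.45 in VHL/FIH null than in VHL null cells (adjusted p = 0.00338). Its fall by 0.47 in VHL/FIH null against FIH null cells (adjusted p = 0.00205) was not called with its probe sets averaged (adjusted p = 0.282). Isg20, an exonuclease of single-stranded RNA, was the 1 member that rose with VHL loss and is named for that, after its values were seen. Isg20 read 943 and 908 in wild type and 670.3 and 759 in FIH null cells. Isg20 read 1779.9 and 1598 in VHL null and 791.5 and 989.8 in VHL/FIH null cells. Both VHL null arrays lay above the other 6, and wild type and VHL/FIH null arrays overlapped. Isg20 was 1.82-fold higher in VHL null than in wild type cells (log2 change 0.85, SE 0.155, adjusted p = 0.00118) and fell by 0.92 in VHL/FIH null against VHL null cells (adjusted p = 0.00087). Eif2ak2 (PKR), the kinase that stops translation on sensing double-stranded RNA, read 3855 and 3706.5 in wild type and 3871 and 3297.5 in FIH null cells. Eif2ak2 read 3160.5 and 3467 in VHL null and 3706.5 and 3642 in VHL/FIH null cells. Its wild type and VHL null arrays did not overlap, but the change of -0.19 did not pass (adjusted p = 0.114), as in the other 5 comparisons.

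**Figure D2:**
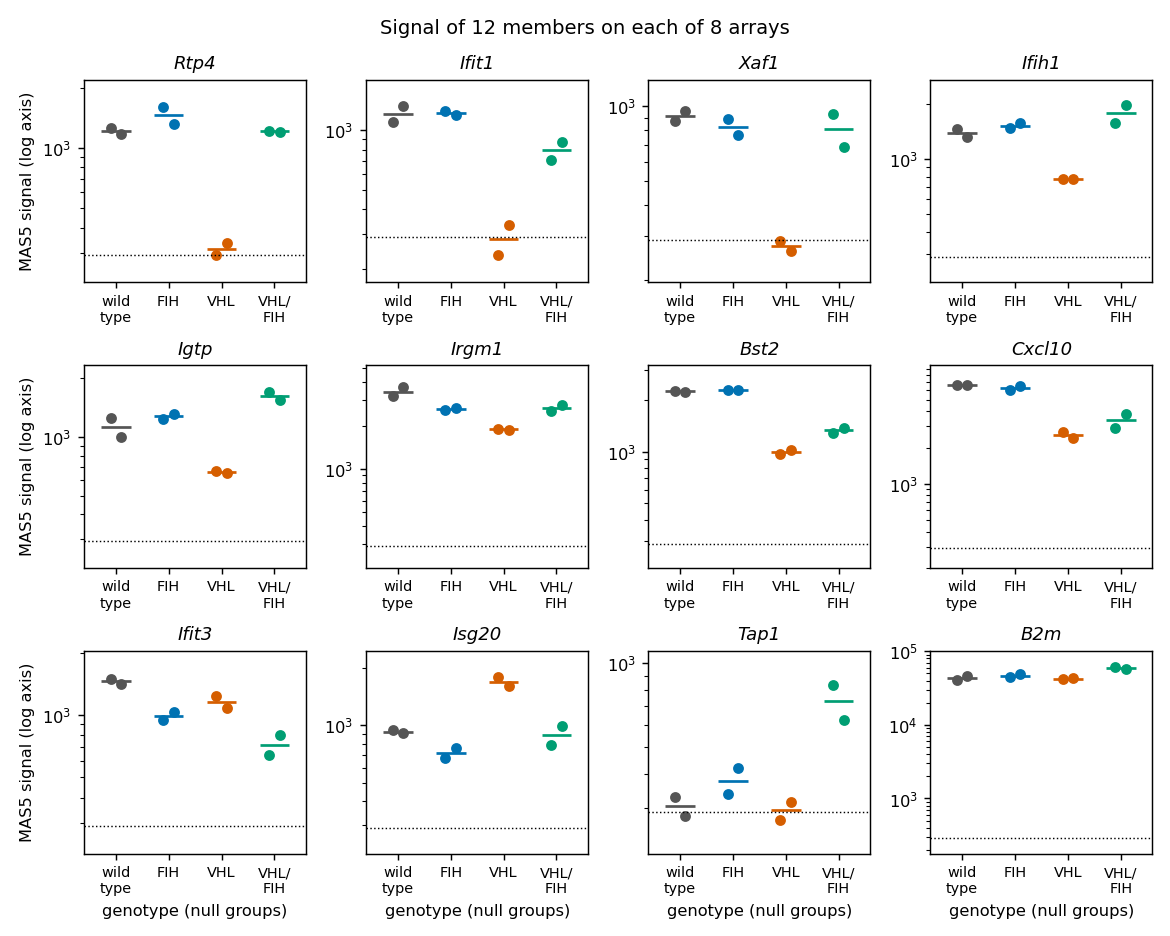
MAS5 signal (log axis) of 12 members on each of the 8 arrays, by genotype. Points are arrays, bars are group means and the dotted line is the cutoff of 291.1. In the top row and for Igtp and Irgm1 the VHL null arrays lie below all others. Bst2 and Cxcl10 stay low in both groups without VHL, Ifit3 is lowest in VHL/FIH null, Isg20 is highest in VHL null, and Tap1 and B2m are highest in VHL/FIH null cells, where B2m turns to -0.07 against wild type with scaling to hybridization controls.

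Trim25, the ubiquitin ligase that activates RIG-I and joins ISG15 to proteins, read 4641 and 4586 on the wild type arrays and 4958 and 4881 on the FIH null arrays. Trim25 read 4288 and 4039 on the VHL null arrays and 3599 and 3602 on the VHL/FIH null arrays. Its VHL/FIH null arrays were the lowest and nearly equal. Trim25 fell by 0.36 in VHL/FIH null cells against wild type (SE 0.0694, adjusted p = 0.0018) and by 0.45 against FIH null cells (adjusted p = 0.000327). With its brightest probe set the change of -0.15 with VHL loss did not pass (adjusted p = 0.106). Of its 3 tested probe sets 1 was called lower with VHL loss (changes from -0.32 to -0.15). The fall by 0.21 between VHL/FIH null and VHL null cells (adjusted p = 0.0353) was not called with only the compared groups. Nor was it called without FIH null replicate 1 or 2, without VHL null replicate 1 or without VHL/FIH null replicate 1 or 2. Usp18, the protease that removes ISG15, was below the cutoff in VHL null cells and at least 1.24-fold higher in VHL/FIH null cells (adjusted p = 0.0156). For Usp18 this was not called without VHL null replicate 1 or without VHL/FIH null replicate 1 or 2 (adjusted p from 0.0576 to 0.0678).

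Ifi35, a leucine zipper protein of the interferon response, read 8436.5 and 7929.7 on the wild type arrays and 9039.5 and 9274 on the FIH null arrays. Ifi35 read 7524 and 7229.5 on the VHL null arrays and 11531 and 12377 on the VHL/FIH null arrays. Both VHL/FIH null arrays lay above the other 6 and both VHL null arrays below them. Ifi35 was 1.62-fold higher in VHL/FIH null than in VHL null cells (log2 change 0.69, SE 0.0641, adjusted p = 1.29e-05). Against wild type it rose by 0.55 (adjusted p = 5.57e-05). For Ifi35 this call ended with scaling to hybridization controls or without suffixed probe sets (adjusted p from 0.634 to 0.793). Against FIH null cells it rose by 0.38 (adjusted p = 0.000567). That call was lost with scaling to hybridization controls, with its probe sets averaged or without suffixed probe sets (adjusted p from 0.224 to 0.728). The Ifi35 change against FIH null cells turned to -0.04 with its probe sets averaged and to -0.17 without suffixed probe sets. With the mean of its probe sets the change with VHL loss was -0.42 (adjusted p = 0.00394), against -0.15 with its brightest probe set (adjusted p = 0.0817).

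The remaining effectors that fell with VHL loss were Trim21, Oasl1, Oasl2 and Parp14. Trim21, a cytosolic antibody receptor, fell by 0.73 (adjusted p = 0.00725). For Trim21 this call ended without VHL null replicate 2 (adjusted p = 0.051), and was higher by 0.57 in VHL/FIH null than in VHL null cells (adjusted p = 0.0287). For Trim21 this call ended with no filter on low signals, with scaling to hybridization controls, with only the compared groups, without VHL null replicate 2 or without VHL/FIH null replicate 1 or 2 (adjusted p from 0.0565 to 0.152). Oasl1, a relative of the oligoadenylate synthetases, was at least 2.35-fold lower in VHL null than in wild type cells (adjusted p = 0.00744). For Oasl1 this was not called without wild type replicate 1 (adjusted p = 0.0793). In VHL/FIH null cells Oasl1 was also 2.12-fold lower than in wild type (adjusted p = 0.017). For Oasl1 this was not called without wild type replicate 1 or without VHL/FIH null replicate 1 (adjusted p from 0.123 to 0.148). Oasl2, with VHL null signals of 12.3 and 204.6, was at least 1.11-fold lower than in wild type (adjusted p = 0.0428). For Oasl2 this call ended with no filter on low signals, with quantile normalization, without a variance trend, with only the compared groups, with its probe sets averaged, without wild type replicate 1 or 2, without FIH null replicate 1 or 2 or without VHL null replicate 1 (adjusted p from 0.0551 to 0.335). Parp14, an ADP-ribosyltransferase, had mean signals below the cutoff in both groups, so no fold is given for its call (adjusted p = 0.0452), which ended with no filter on low signals, with quantile normalization, with median centring, with only the compared groups, with the replicate number as a block, without wild type replicate 1 or 2, without FIH null replicate 1 or 2 or without VHL null replicate 1 (adjusted p from 0.0544 to 0.253). Rsad2 and Oas2 were not tested, with group means at or below 296.6 and 231.4.

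Bases upstream of the transcript start were available from RefSeq (build GRCm38.p6) for 32 of the 40 members, in 40 windows of 250 bases; Dhx58, Mx1, Mx2, Usp18, Oas2, Rtp4, Parp14 and Tap2 had no entry. The ISRE core, GAAA followed by 2 bases of any kind and GAAA again, was searched on both strands, counting overlapping matches. It was found in 11 of the 40 windows (27.5%), in 11 members, beside 2.98% of 32851 windows of all genes. The gamma-activated site TTCNNNGAA was in 8 windows (20.0%, beside 7.02% of all), and the core ACGTG of the hypoxia response element was in 4 (10.0%, beside 16.6%). Such matches are letters in a window and not sites shown to be bound. Of 10 tested members with the ISRE core 7 were lower and 0 higher in VHL null cells, and of 21 tested members without it 9 were lower and 1 higher. Over all genes 28.4% were lower and 15.5% higher. In VHL/FIH null against VHL null cells 7 with the core were higher and 1 lower (median 0.48). Without it 9 were higher and 3 lower (median 0.45), beside 22.3% and 15.4% of all genes. Against wild type 2 with the core were higher and 6 lower, and 3 and 4 without it, beside 17.8% and 23.6%. A part of the core in these changes was not tested. The upstream sequences below, chosen after the values were seen, show the core in 4 effectors that fell with VHL loss and in 2 members that had no call there, Ifit3 and B2m. They are written 5′ to 3′ on the strand of the gene, in lower case, with matches to the core or its reverse complement in capitals.
Ifit1 (chr19:34640639-34640888, plus strand): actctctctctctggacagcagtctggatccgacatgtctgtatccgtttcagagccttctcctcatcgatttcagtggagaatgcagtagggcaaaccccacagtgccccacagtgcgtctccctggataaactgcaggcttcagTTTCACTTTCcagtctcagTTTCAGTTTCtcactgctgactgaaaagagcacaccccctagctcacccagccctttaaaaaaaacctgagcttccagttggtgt
Bst2 (chr8:71537473-71537722, minus strand): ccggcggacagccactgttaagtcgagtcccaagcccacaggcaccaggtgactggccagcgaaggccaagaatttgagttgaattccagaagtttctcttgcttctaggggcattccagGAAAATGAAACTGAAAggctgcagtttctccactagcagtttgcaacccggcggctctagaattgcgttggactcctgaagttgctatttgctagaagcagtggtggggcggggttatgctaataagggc
Irgm1 (chr11:48871421-48871670, minus strand): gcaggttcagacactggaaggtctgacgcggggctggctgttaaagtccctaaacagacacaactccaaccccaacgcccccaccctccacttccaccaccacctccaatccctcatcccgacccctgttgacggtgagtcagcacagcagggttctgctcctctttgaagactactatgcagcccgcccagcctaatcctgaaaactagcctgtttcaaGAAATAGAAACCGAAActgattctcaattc
Igtp (chr11:58199306-58199555, plus strand): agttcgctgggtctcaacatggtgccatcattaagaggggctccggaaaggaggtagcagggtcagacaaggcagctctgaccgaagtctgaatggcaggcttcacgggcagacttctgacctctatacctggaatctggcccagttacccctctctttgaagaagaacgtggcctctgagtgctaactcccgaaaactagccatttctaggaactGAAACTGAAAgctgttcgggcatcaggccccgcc
Ifit3 (chr19:34583279-34583528, plus strand): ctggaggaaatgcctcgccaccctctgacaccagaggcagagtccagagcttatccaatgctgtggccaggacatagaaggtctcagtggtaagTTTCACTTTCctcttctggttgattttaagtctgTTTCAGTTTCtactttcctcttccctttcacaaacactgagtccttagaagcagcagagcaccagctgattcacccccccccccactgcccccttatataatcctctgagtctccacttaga
B2m (chr2:122147437-122147686, plus strand): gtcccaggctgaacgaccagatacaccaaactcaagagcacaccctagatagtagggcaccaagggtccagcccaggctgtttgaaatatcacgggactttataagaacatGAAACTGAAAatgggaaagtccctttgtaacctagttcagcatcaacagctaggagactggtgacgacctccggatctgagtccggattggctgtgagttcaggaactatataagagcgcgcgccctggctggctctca

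Counting the base just before the start as -1, the first bases of the matches lay at -104 and -85 in Ifit1, at -130 and -124 in Bst2, at -30 and -24 in Irgm1, at -34 in Igtp, at -156 and -122 in Ifit3 and at -139 in B2m. The matches of Bst2 and of Irgm1 overlap, so their capitals form 1 run. Ifit1 and Ifit3 thus each hold a pair of matches, while Ifit1 fell by 2.05 with VHL loss and Ifit3 changed by -0.33 without a call. Of the other motifs, the Bst2 window holds the gamma-activated site at -136, the Igtp window holds it at -45 and ACGTG at -83, and the other 4 windows hold no match.

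Of the 5 tested members that serve peptide supply to MHC class I, 2 (Tap1 and B2m) were higher in VHL/FIH null than in wild type cells and 0 lower. Over all genes 17.8% were higher and 23.6% lower. Against VHL null cells 3 (Tap1, Tap2 and B2m) were higher, beside 22.3% of all genes. Against wild type B2m turned to -0.07 with scaling to hybridization controls. Tap1, a subunit of the peptide transporter, read 329.7 and 280.4 on the wild type arrays and 336 and 418 on the FIH null arrays. Tap1 read 272 and 317 on the VHL null arrays and 834 and 622 on the VHL/FIH null arrays. The VHL/FIH null arrays lay above the other 6, and those of wild type and VHL null cells overlapped near the cutoff. Tap1 was 2.39-fold higher than in wild type (log2 change 1.20, SE 0.267, adjusted p = 0.00404) and 2.47-fold higher than in VHL null cells (adjusted p = 0.00376). Against FIH null cells it was higher by 0.91 (adjusted p = 0.0162). For Tap1 this was not called with scaling to hybridization controls, without FIH null replicate 1 or without VHL/FIH null replicate 1 (adjusted p from 0.0537 to 0.122).

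Tap2, the other transporter subunit, read 527 and 251 in wild type and 545 and 478 in FIH null cells. Tap2 read 127 and 183 in VHL null and 633 and 685 in VHL/FIH null cells. Its wild type arrays were far apart, both VHL null arrays were below the cutoff, and the VHL/FIH null arrays were the highest. Tap2 was at least 2.26-fold higher in VHL/FIH null than in VHL null cells (log2 change 2.00, adjusted p = 0.00103). Its fall with VHL loss, at least 1.34-fold (adjusted p = 0.0175), was not called with only the compared groups, without wild type replicate 1 or without VHL null replicate 1 (adjusted p from 0.0564 to 0.183). B2m, the light chain of MHC class I, read 41074 and 45595 in wild type and 44977 and 48370.1 in FIH null cells. B2m read 42469.7 and 42844 in VHL null and 61258 and 56927 in VHL/FIH null cells. The VHL/FIH null arrays lay above all others, and the wild type arrays overlapped those of both single null groups. B2m rose by 0.45 against wild type (SE 0.067, adjusted p = 0.000311) and by 0.47 against VHL null cells (adjusted p = 0.00029), while it changed by -0.02 with VHL loss (95% interval -0.17 to 0.13). The call against wild type ended with scaling to hybridization controls (adjusted p = 0.345), where the change was -0.07. The immunoproteasome subunit genes Psmb8 and Psmb9 were above the cutoff on 2 arrays each. Psmb9 read 246 and 355.5 (wild type), 258 and 223 (FIH null), 179 and 206 (VHL null), and 303 and 274.5 (VHL/FIH null), and its change of -0.58 with VHL loss did not pass (adjusted p = 0.197).

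The chemokine gene Cxcl10, whose product draws T cells and natural killer cells, read 6599.7 and 6610.3 on the wild type arrays and 6059 and 6486 on the FIH null arrays. Cxcl10 read 2692 and 2386 on the VHL null arrays and 2918 and 3832 on the VHL/FIH null arrays. Both groups without VHL lay below both groups with it, and the VHL null and VHL/FIH null arrays did not overlap. Cxcl10 fell 2.6-fold in VHL null cells (log2 change -1.38, SE 0.115, adjusted p = 6.33e-06) and 1.96-fold in VHL/FIH null cells against wild type (log2 change -0.98, adjusted p = 5.45e-05). Its difference of 0.40 between VHL/FIH null and VHL null cells (adjusted p = 0.0184) was not called with scaling to hybridization controls, without a variance trend, without VHL null replicate 2 or without VHL/FIH null replicate 2 (adjusted p from 0.0772 to 0.149).

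Whether VHL loss acted differently with and without FIH was tested as an interaction. Of 35 members 9 had a higher change with VHL loss where FIH was deleted and 1 a lower one (21.9% of all genes called, 13.4% higher and 8.47% lower), with a median interaction of 0.45 against 0.06 for all genes. Rtp4 changed by -1.90 with VHL loss in FIH-intact cells and by -0.27 in FIH-deleted cells (interaction 1.64, SE 0.221, adjusted p = 0.000473). Xaf1 changed by -1.69 and -0.04 (interaction 1.64, adjusted p = 0.0022), and Ifit1 by -2.05 and -0.61 (interaction 1.44, adjusted p = 0.0047). The second Xaf1 probe set changed by -0.38 and 3.24, of which only the rise in FIH-deleted cells was called. Irgm1, Ifih1 and Igtp likewise fell with VHL loss where FIH was intact, while their changes of 0.03, 0.21 and 0.34 where it was deleted did not pass, the first and second turning to -0.23 and -0.05 with scaling to hybridization controls. Their interactions were 0.90 (adjusted p = 0.000989), 1.04 (adjusted p = 0.00315) and 1.08 (adjusted p = 0.0037). The interaction of these 6 genes was called in every other setting that tested them, apart from a required 2-fold change, which Irgm1 did not reach. Bst2 and Cxcl10, which fell in both backgrounds, had interactions of 0.39 (95% interval 0.07 to 0.71, adjusted p = 0.078) and 0.47 (95% interval 0.12 to 0.83, adjusted p = 0.0595) that did not pass. The interaction of Ifi35, 0.53 (adjusted p = 0.002), was not called with its probe sets averaged or without suffixed probe sets (adjusted p from 0.057 to 0.102). That of B2m, 0.36 (adjusted p = 0.0193), was not called with median centring, without a variance trend, without wild type replicate 2, without FIH null replicate 1 or without VHL null replicate 1 or 2 (adjusted p from 0.0572 to 0.0905). For Tap2, whose interaction was 1.53 (adjusted p = 0.0454), the call ended with no filter on low signals, with quantile normalization, with median centring, without a variance trend, without wild type replicate 1, without FIH null replicate 1 or 2, without VHL null replicate 1 or 2 or without VHL/FIH null replicate 1 or 2 (adjusted p from 0.0503 to 0.166). Trim25 had the 1 interaction in the other direction, -0.30 (adjusted p = 0.0494). For Trim25 this was not called with no filter on low signals, with scaling to hybridization controls, without a variance trend, with its probe sets averaged, with the replicate number as a block, without wild type replicate 1 or 2, without FIH null replicate 1 or 2, without VHL null replicate 1 or 2 or without VHL/FIH null replicate 1 or 2 (adjusted p from 0.0519 to 0.288).

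**Figure D3:**
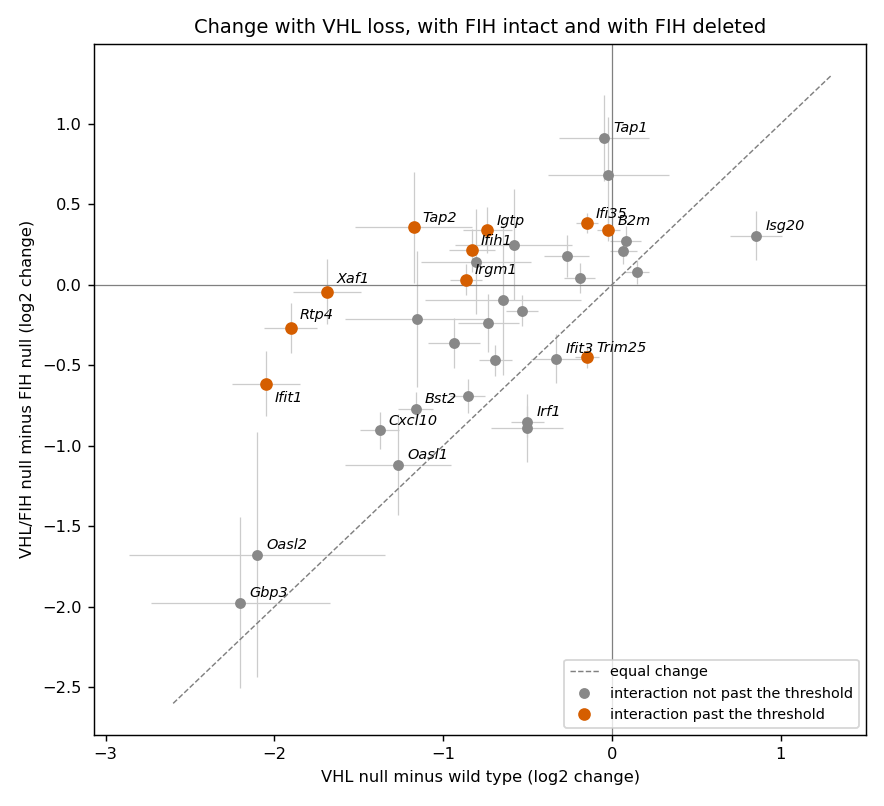
Log2 change with VHL loss where FIH is intact (VHL null minus wild type, x axis) and where FIH is deleted (VHL/FIH null minus FIH null, y axis) for the 35 tested members; points are genes, grey lines are 1 standard error and the dashed line marks equal change. Of the 10 members with a called interaction, in orange, 9 lie above the line and Trim25 below it, with Rtp4, Xaf1 and Ifit1 farthest to the left; the orange calls of Ifi35, B2m, Tap2 and Trim25 end under other settings.

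VHL loss in FIH-deleted cells, VHL/FIH null against FIH null, called 15 of 35 members (45.5% of all genes, 20.6% higher and 25% lower), 4 higher and 11 lower, with a median of -0.10 against -0.04 for all genes. Leaving out FIH null replicate 1 reduced the count from 15 to 9. This comparison shares no array with VHL null against wild type. Of the 19 members lower there and the 11 lower here, 8 were shared (Irf1, Ddx58, Ifit1, Oasl1, Bst2, Gbp3, Adar and Cxcl10), which is 42.1% of the former and 72.7% of the latter. Over all tested genes the shares were 52.1% and 59.2%. The Ifit1 call against FIH null cells ended with no filter on low signals. It also ended without FIH null replicate 1 or 2 or without VHL/FIH null replicate 1, as did that of Oasl1. The calls of Gbp3 and Adar against FIH null cells ended under the settings given above.

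FIH loss alone, FIH null against wild type, called 2 of 35 members, both lower, and the median change of the members was 0.08. They were Ifit2, at 3877 ± 34.9 in wild type and 2926 ± 259.6 in FIH null cells (log2 change -0.41, adjusted p = 0.0246), and Irgm1 (log2 change -0.41, adjusted p = 0.0287). Ifit2 was not called with median centring, without a variance trend, without wild type replicate 1 or 2 or without FIH null replicate 1 (adjusted p from 0.0557 to 0.209), and Irgm1 was not called with median centring, without a variance trend, without wild type replicate 2 or without FIH null replicate 1 or 2 (adjusted p from 0.0627 to 0.201). The count of members moved to 0 or 1 when any 1 of the 4 arrays compared was left out, and the count over all genes from 758 to between 354 and 395. Rtp4 changed by 0.26 (95% interval -0.08 to 0.60) and Bst2 by 0.03 (95% interval -0.20 to 0.26) with FIH loss alone, neither passing, and Bst2 turned to -0.23 (adjusted p = 0.114) with scaling to hybridization controls.

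A further list of 37 such genes, also chosen with earlier results of these data known, had 21 tested. Of these 17 were lower and 0 higher in VHL null cells (81.0% lower, median -0.58), beside 28.4% lower and 15.5% higher of all genes. In VHL/FIH null against VHL null cells 14 were higher and 0 lower (median 0.51), beside 22.3% higher and 15.4% lower of all genes. In FIH null cells 0 of the 21 were called, beside 6.55% of all genes. Ifi27, a mitochondrial interferon-induced protein, read 1842 and 2075 in wild type and 1596 and 1846 in FIH null cells. Ifi27 read 691 and 689.9 in VHL null and 3873 and 3184 in VHL/FIH null cells. Its VHL null arrays were the lowest and its VHL/FIH null arrays the highest, and it fell by 1.48 with VHL loss (adjusted p = 8.43e-06) and was higher by 2.32 in VHL/FIH null than in VHL null cells (adjusted p = 2.46e-07). Parp9 likewise fell by 0.88 and was higher by 1.40 (adjusted p = 0.000434 and 1.85e-05). The entry inhibitor gene Ifitm3 fell by 0.58 and was higher by 0.66 (adjusted p = 9.02e-05 and 4.06e-05), whereas the lectin gene Lgals9 fell with VHL loss (-1.07, adjusted p = 0.000523) and its change of -0.10 between VHL/FIH null and VHL null cells did not pass (adjusted p = 0.679).

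Of 18 tested adaptors, kinases and feedback regulators of sensing, 4 were lower and 2 higher in VHL null cells (22.2% and 11.1%, beside 28.4% and 15.5% of all genes). In VHL/FIH null against VHL null cells 7 were higher and 0 lower (38.9%, beside 22.3% higher and 15.4% lower of all genes). Sting1, the adaptor of cytosolic DNA sensing, fell by 0.72 with VHL loss (adjusted p = 0.000609), while Mavs, the mitochondrial adaptor of the RNA sensors, rose by 0.35 (adjusted p = 0.0226), which turned to -0.02 (adjusted p = 0.881) with scaling to hybridization controls. Of 12 tested genes of MHC class I and its loading, 3 were lower (25.0%, beside 28.4% of all genes) and 2 higher (beside 15.5%) in VHL null cells. H2-K1 rose by 0.74 and H2-D1 fell by 0.51 (adjusted p = 3.82e-05 and 0.000339), values that are uncertain because these genes have near-identical relatives. Tapbp, which tethers the peptide transporter to MHC class I, fell by 0.61 (adjusted p = 2.48e-05).

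**Figure D4:**
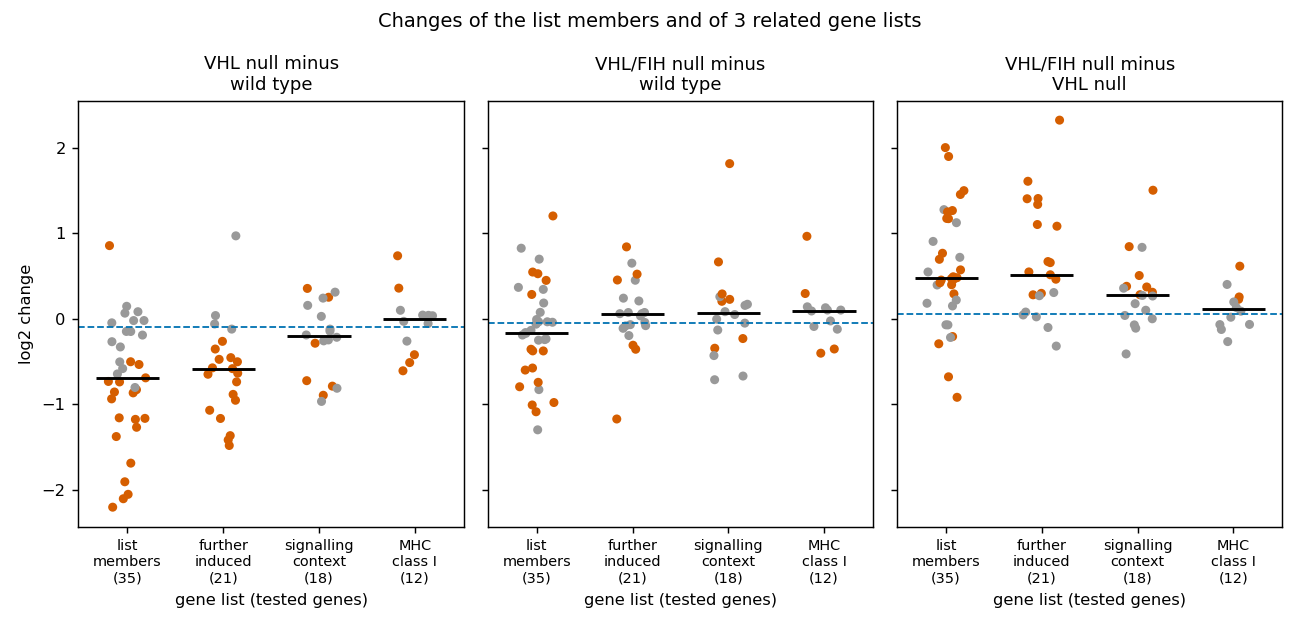
Log2 changes of the 35 tested list members and of 3 related lists (21 further interferon-induced genes, 18 sensing and signalling genes, 12 MHC class I genes) in 3 comparisons. Points are genes, orange where called and grey where not, black bars are list medians and the dashed line is the median of all genes. The lists were chosen with earlier results of these data known. The first and second lists lie mostly below the line in VHL null against wild type (medians -0.69 and -0.58) and mostly above it in VHL/FIH null against VHL null cells (0.48 and 0.51), which share the VHL null arrays.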

How the data were processed

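Total RNA of 8 samples, 2 for each of 4 genotypes, was measured on Affymetrix Mouse Genome 430 2.0 arrays. The deposited values are linear signal intensities, 1 per probe set, computed by the authors with MAS5, per the submitters' processing notes. Its version is not given in the sources used here. Each array held 45101 probe sets, had a mean intensity, trimmed by 2% at either end, of 2500.01 and was used without further scaling. Medians ran from 281.7 to 307.5 per array.

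Symbols came from the platform annotation, which gives 34945 probe sets 1 symbol, 932 several and 9160 none, besides 64 controls. Probe sets above 291.1, the median of all signals without controls, on at least 2 arrays were tested, and each of 11564 genes was read by the probe set of highest mean log2 signal. The signal was transformed as log2(signal + 16), which understates the change of low genes. R 4.3.3 and limma 3.58.1 served to fit the group means of all 8 arrays (lmFit, contrasts.fit and eBayes with a trend, 4 residual and 7.04 prior degrees of freedom), for 6 comparisons, with Benjamini-Hochberg adjustment over all genes and a two-sided threshold of 0.05. The script was tested on simulated data.

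Members given by array were those that passed with the smallest adjusted p-values over the comparisons, at most 4 a role and 10 effectors, and 1 member a role that did not pass. Isg20, Gbp3 and the second Xaf1 probe set were added after their values were seen. Members and lists were chosen with earlier results of these data known. Replicates carry the same numbers in each group, but these did not pair the samples: replicate differences correlated between groups with r from 0.00869 to 0.0393. The alternatives were pseudocounts of 1 and 64, no filter and a filter at the 75th percentile (2454), quantile normalization, median centring, scaling to hybridization controls, no variance trend, the compared groups alone, other choices of probe set, a replicate block, a 2-fold minimum and leaving out each of the 8 arrays. Bases upstream of transcript starts were read from RefSeq, build GRCm38.p6.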

Additional observations from a re-analysis of the deposited data

Results flagged for a closer look

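In 10 members the effect of VHL loss differed between FIH-intact and FIH-deleted cells by the interaction test of limma, and the values are log2 differences between both effects. The interaction was 1.64 in Rtp4 (adjusted p = 0.000473), 1.64 in Xaf1 (0.0022), 1.44 in Ifit1 (0.0047), 1.08 in Igtp (0.0037), 1.04 in Ifih1 (0.00315) and 0.90 in Irgm1 (0.000989). These 6 fell with VHL loss where FIH was intact. Where it was deleted, Ifit1 fell by 0.61 and the changes of the other 5, from -0.27 to 0.34, did not pass. That Ifit1 call ended with no filter on low signals. It also ended without FIH null replicate 1 or 2 or without VHL/FIH null replicate 1. A second Xaf1 probe set rose by 3.24 where FIH was deleted and was called. The interaction was 1.53 in Tap2 (0.0454), 0.53 in Ifi35 (0.002) and 0.36 in B2m (0.0193). Trim25 had an interaction of -0.30 (0.0494), with the larger fall where FIH was deleted. The interaction calls of Tap2, Ifi35, B2m and Trim25 ended under other settings, as given above. Beside these 10 of 35 members, 21.9% of all tested genes had a called interaction.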

How the results depend on the processing

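Counts of members called under the main setting were 20 (VHL null against wild type), 2 (FIH null against wild type), 15 (VHL/FIH null against wild type), 23 (VHL/FIH null against VHL null), 15 (VHL/FIH null against FIH null) and 10 (interaction), and the values below keep this order. Leaving out each array in turn gave 16 to 20, 0 to 3, 10 to 16, 18 to 24, 9 to 16 and 7 to 11. The numbers did not pair the samples, and a replicate block gave 19, 2, 16, 23, 16 and 9. The filter at the 75th percentile, which tested 13 members, gave 6, 8, 10, 9 and 4 for all but the FIH comparison. Scaling to hybridization controls gave 32, 7 and 24 against wild type, 31, 7 and 23 of them lower. For FIH null against wild type, no variance trend gave 0 and the mean of the probe sets gave 4, and both calls under median centring (2) were higher rather than lower. Without suffixed probe sets (_s_at, _x_at and _a_at) 24 members were tested and the interaction called 6. A 2-fold minimum gave 10, 0, 3, 8, 2 and 6. Directions turned for Ifnar1 (-0.24) and B2m (-0.0733) in VHL/FIH null against wild type cells with scaling to hybridization controls. In VHL/FIH null against VHL null cells Irf3 turned (-0.0617) with the mean of its probe sets. Against FIH null cells Ifi35 turned with the mean of its probe sets (-0.0424) and without suffixed probe sets (-0.17). The cause was not tested.

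Over all genes, FIH null against wild type called 758, 1434 with median centring, 5105 with scaling to hybridization controls, 421 with no variance trend, and 378, 377, 354 and 395 without either wild type or either FIH null array. With scaling to hybridization controls VHL null against wild type called 8387 in place of 5067 and VHL/FIH null against wild type 9136 in place of 4789. The interaction called 2533, and 1645 without FIH null replicate 1. A 2-fold minimum called 627, 212, 805, 693, 901 and 636. The share of calls that were higher was 35.3% for VHL null against wild type (49.3% with median centring, 5.13% with scaling to hybridization controls), 29.9% for FIH null (71.3% and 1.37%) and 43.0% for VHL/FIH null (55.4% and 5.55%). It was 59.1% for VHL/FIH null against VHL null (31.6% with scaling to hybridization controls), 45.2% against FIH null (16.1%) and 61.4% for the interaction (80.8%, and 40.3% with median centring). Low signal limited 12 of the 35 tested members, which were below the cutoff on at least 1 array.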
